A study of Mus musculus with 4 samples.

Results

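Retnlg-rich neutrophils are cells of mouse heart grafts that carried the 2 alarmin transcripts S100a8 and S100a9, the granulocyte colony-stimulating factor receptor Csf3r and many copies of Retnlg, but no copy of the chemokine Ccl3. A cell was a member when S100a8 and S100a9 together made up at least 5% of its unique molecular identifiers (UMIs, each a counted RNA molecule), when it held at least 1 Csf3r and 10 Retnlg UMIs, and when it held 0 UMIs of Ccl3 and of the endothelial gene Cdh5. Of 53824 deposited barcodes, 44626 had over 200 genes and under 20% mitochondrial UMIs, and 425 of these were members (0.952%, exact binomial 95% interval 0.864% to 1.05%). The 4 grafts were collected on day 5 after transplantation into the abdomen of C57BL/6J recipients. There were 2 allogeneic grafts from Balb/C donors and 2 syngeneic grafts from C57BL/6J donors, all from adult males, with no transgene and no drug in any group. The whole graft was digested with collagenase and dispase, red cells were lysed, and cells were not sorted, so blood neutrophils left in the vessels of the graft and neutrophils in its tissue came in 1 suspension. The matrix holds 4 libraries, known here by the barcode suffixes 1 to 4. The sources used here do not say which suffix belongs to which graft, so the matrix was treated as 1 pooled sample, allogeneic and syngeneic grafts were not compared, and no value below has a replicate check or a test. All intervals are 95% intervals that cover counting error alone.

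Neutrophils are short-lived phagocytes that mature in the bone marrow and reach injured or transplanted tissue through the blood. Their granule proteins are made in an order: primary granule enzymes first, secondary (specific) granule proteins such as lactoferrin next, then gelatinase granule proteins, while receptors for chemoattractants come last. Retnlg encodes resistin-like gamma, a small secreted protein of the resistin family made by mouse myeloid cells. S100a8 and S100a9 encode the subunits of calprotectin, a calcium- and metal-binding protein that fills the neutrophil cytosol.

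The libraries stood far apart in what they gave. Library 2 held 342 members, 2.60% of its kept cells and 80.5% of all members. Library 4 held 46 (0.407%), library 1 held 27 (0.262%) and library 3 held 10 (0.102%). Pooled levels therefore rest mostly on library 2, except for genes found mainly in another library, such as Gbp2 in library 4 and Camp in library 1. The median member had 4537 UMIs and 1344 genes, with 2.09% mitochondrial UMIs. Median depth by library was 4140, 5059, 3045.5 and 3420 UMIs in libraries 1 to 4. Of the members, 4 carried a barcode sequence that also occurred in another library, and in no case was the partner a member.

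The steps of the rule show where the cells were lost. S100a8 and S100a9 at 5% or more left 2578 kept cells, Csf3r left 2278 and the absence of Cdh5 left 1674. The absence of Ccl3 then left 546, of which 425 had at least 10 Retnlg UMIs. Near the Retnlg limit there were 39 members with 10 to 14 UMIs, while 40 cells just outside had 5 to 9 UMIs, 49 had 1 to 4 and 32 had none. Near the Ccl3 limit, 178 cells that met the rest of the rule held exactly 1 Ccl3 UMI and 602 held 3 or more. A further 154 cells met every other term and held Cdh5, 147 of them in library 2. Their median depth was 6303 UMIs, against 4537 in the members.

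The abundance of Retnlg in neutrophils differed between libraries over the whole set of 1674 Cdh5-negative neutrophils, with and without Ccl3. In library 2, 86.9% (interval 85.0% to 88.7%) of 1356 such cells held at least 10 Retnlg UMIs. The share was 62.0% of 50 cells in library 1, 33.0% of 176 cells in library 4 and 12.0% of 92 cells in library 3. As a level over all of these neutrophils, Retnlg stood at 11901, 26193, 1519 and 2747 UMIs per 1000000 non-mitochondrial UMIs (CPM) in libraries 1 to 4. Libraries 3 and 4 thus had neutrophils of which most were poor in Retnlg. The order of the libraries was kept when each cell was thinned to 1000 UMIs. The share with 5 or more Retnlg UMIs was then 44.0% in library 1, 81.5% in library 2, 22.2% in library 4 and 12 of 92 cells in library 3, with 13 shallower cells left out, all in library 2. Retnlg outside neutrophils differed as well. Of the endothelial cells of library 2, which should lack the gene, 75.5% held a Retnlg UMI, at a median depth of 6851 UMIs against 4656 in its neutrophils. Their Retnlg level was 320 CPM, against 1.09 CPM in the endothelial cells of library 4. The part of free RNA in the neutrophil levels was not tested.

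**Figure D1:**
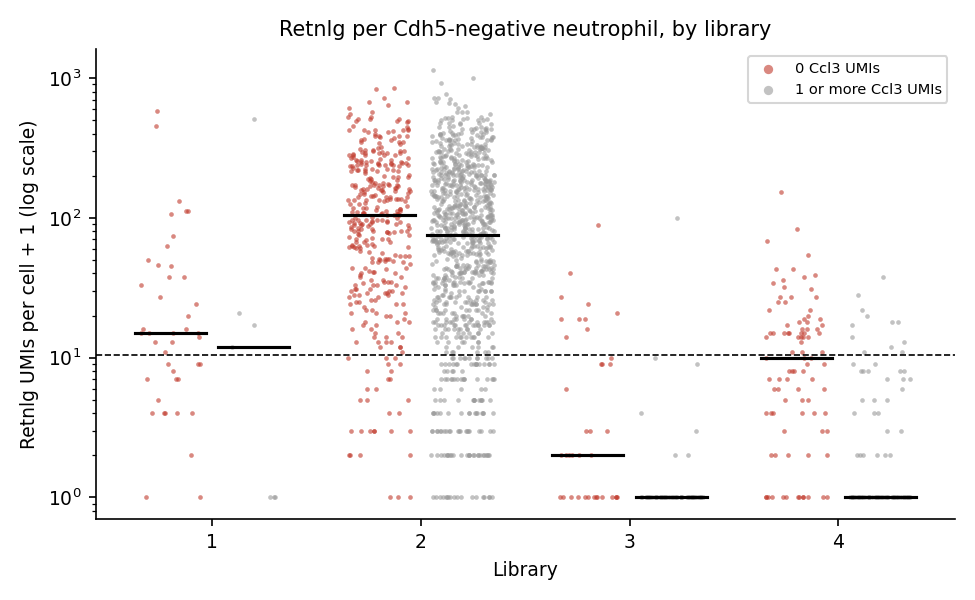
Retnlg UMIs per cell plus 1 (vertical axis, log scale) in the Cdh5-negative neutrophils of libraries 1 to 4 (horizontal axis), where each point is a cell, black bars are medians and the dashed line marks the limit of 10 UMIs. Red points above the line are the 425 members, 342 of them in library 2, and most neutrophils of libraries 3 and 4 lie below it.

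The rule's own genes are given as a description. Retnlg stood at 27480 CPM (27260 to 27701) in the pooled members and made up a median 2.06% of a member's UMIs. By library it stood at 15559, 30242, 9058 and 7866 CPM, so the members of library 2 were the richest. The number of Retnlg UMIs per member ran from 10 through a median of 90 to 845. S100a9 (118424 CPM) and S100a8 (109526 CPM) were the 2 most abundant transcripts, and the ferritin heavy chain Fth1 (33716 CPM) came between them and Retnlg. The 15 most abundant genes also held the protease-inhibitor-like Wfdc17 (9432 CPM), the iron-siderophore binding protein Lcn2 (9046 CPM), the granule proteoglycan Srgn (8931 CPM), the chemokine Cxcl2 (4834 CPM) and Ifitm1 (4800 CPM). These are counts of 3′ tags, 1 per molecule, and are not divided by gene length.

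Retnlg lies on chr16:48872621-48874496 (GRCm38, plus strand), on the same strand as its relative Retnla, which ends 28.2 kb before it. The other members of the resistin family were scarce. Retnla, known from alternatively activated macrophages, stood at 61.2 CPM, all of it in library 2, where 72 of its 133 UMIs came from 1 cell. Retn, which encodes resistin, stood at 10.1 CPM and Retnlb at 1.84 CPM. Reads shared between such close relatives could have been split or dropped in counting, so the small levels of Retnla and Retnlb are uncertain.

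The label was checked against markers that the rule did not use. Transcripts of mature neutrophils were abundant: the CXC chemokine receptor Cxcr2 stood at 831 CPM, the decoy receptor Il1r2 at 2043 CPM, the whey-acidic-protein gene Wfdc21 at 4516 CPM and the peptidoglycan-binding protein Pglyrp1 at 1331 CPM. Ly6g, the gene of the antigen most used to stain mouse neutrophils, was low at 158 CPM, at 301, 154, 0 and 105 CPM in libraries 1 to 4. Of 6 cell-cycle genes other than Hmgb2, Pcna was the highest at 11.5 CPM, and Mki67 stood at 2.76 CPM. Some markers of other blood cells had no UMI and others were found. Of 4 B cell genes, Cd79a, Ms4a1 and Ly6d had 0 UMIs and Cd79b stood at 0.460 CPM. Of 5 eosinophil genes, Epx, Prg2 and Ccr3 had 0 UMIs, and the highest, Siglecf, stood at 4.60 CPM. Of 4 basophil and mast cell genes, Mcpt8, Ms4a2 and Fcer1a had 0 UMIs and Cpa3 stood at 0.460 CPM. Of 4 dendritic cell genes, Flt3 and Cd209a had 0 UMIs and the highest, H2-Ab1, stood at 52.9 CPM. For each gene at 0, a floor of 3 of 425 cells puts the share of cells with a UMI at up to 0.706%, which is not an exact interval and does not limit the share of cells that express the gene. All genes of 3 further lists were found: 5 erythroid genes summed to 213 CPM, led by Hbb-bs, 4 platelet genes to 49.2 CPM, led by Pf4 at 42.3 CPM, and 5 T and NK cell genes to 20.7 CPM, led by Cd3d.

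Transcripts of endothelial and mononuclear cells were present. The 7 endothelial markers summed to 1888 CPM, of which Fabp4, a fatty-acid binding protein, gave 1483 CPM, against 18184 CPM of Fabp4 in endothelial cells. By library their sum was 625, 2129, 1173 and 197 CPM, with Cdh5 at 0 by the rule. The 8 macrophage markers summed to 489, 280, 717 and 1039 CPM in libraries 1 to 4, and C1qa stood at 38.7 CPM in all members. The 6 monocyte markers summed to 324, 676, 293 and 4137 CPM, with Plac8 at 2677 CPM and Ccr2 at 85.5 CPM in library 4. The 4 fibroblast markers summed to 504, 95.3, 1075 and 250 CPM. The part of free RNA or of doublets in these levels was not tested. A doublet score marked 6 of the 425 members.

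Among granule transcripts, the 5 primary granule genes were scarce, at 8.28 CPM in sum, and the later sets were uneven. Elane and Ctsg, which encode the serine proteases neutrophil elastase and cathepsin G, had 0 UMIs in all 425 members. Mpo (myeloperoxidase) stood at 0.920 CPM, Ms4a3 at 1.38 CPM and Prtn3, which encodes the related serine protease proteinase 3, at 5.98 CPM. All 8 secondary granule genes were detected. Lcn2 stood at 8235, 9826, 2509 and 1546 CPM in libraries 1 to 4, and Hp, which encodes haptoglobin, at 2763, 2281, 2053 and 2111 CPM. Hp was thus even across libraries, while Lcn2 was lower in libraries 3 and 4 than in library 2. Most Lcn2 UMIs of library 1 came from 2 members rich in Ngp, Camp and Ltf, described below. The 24 members in which these 3 genes reached 1% of UMIs held 3862 Lcn2 UMIs. Of these, 3077 were in 22 cells of library 2 and the rest in the 2 cells of library 1. Lcn2 was also at 731 CPM in the endothelial cells of library 2, and the part of free RNA in its level was not tested. The chitinase-like Chil3 stood at 760, 2824, 684 and 118 CPM. The same 24 members held 1002 Chil3 UMIs, 901 of them in library 2. The rest, in those 2 cells, were most of the Chil3 of library 1. Cd177, a surface glycoprotein that binds proteinase 3, stood at 452, 1056, 130 and 19.7 CPM, highest in library 2 and almost absent in library 4. Most Cd177 UMIs of library 1 also came from those 2 cells. The 24 members held 331 Cd177 UMIs, 284 of them in library 2. Of the gelatinase set, Mmp9 (gelatinase B) stood at 1091, 1670, 1303 and 651 CPM and Mmp8 (neutrophil collagenase) at 1001, 1422, 391 and 743 CPM.

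Ngp, Camp and Ltf, which encode neutrophilic granule protein, the cathelicidin precursor and lactoferrin, were uneven among members. Ngp stood at 10689, 3504, 0 and 138 CPM in libraries 1 to 4, Camp at 10937, 357, 0 and 0 CPM, and Ltf at 3688, 260, 0 and 0 CPM. The high values of library 1 rest on 1 cell of 20667 UMIs that held 1289 Camp, 953 Ngp and 369 Ltf UMIs. Without that cell, library 1 gave 4145 CPM of Ngp, 1456 CPM of Camp and 1074 CPM of Ltf, and the pooled Camp level fell from 974 to 384 CPM. The tenth of members richest in each gene, 42 cells, held 99.7% of all Camp, 99.3% of all Ltf and 79.2% of all Ngp UMIs. The 42 richest cells held 34.3% of all Retnlg and 25.6% of all Cxcr2 UMIs, which were spread over the members. Ngp was the more widely found, in 67.5% of the members of library 2 (median 5059 UMIs). Of that library's endothelial cells (median 6851 UMIs), 12.5% held it.

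In single members, Ngp, Camp and Ltf together made up a median 0.0271% of UMIs, and 174 members had none of them. They reached 1% in 24 members, 22 of them in library 2 and 2 in library 1, and 5% in 2. All 3 transcripts occurred together in 20 members. The 24 cells were chosen by these genes, so what else differed is a description. They were deeper, with a median of 9880 UMIs against 4452 in the other 401. Retnlg was alike in both at 27293 and 27501 CPM. S100a8 stood at 172817 against 102312 CPM, Lcn2 at 17368 against 8098 CPM and Mmp8 at 2482 against 1203 CPM. Anxa1, which encodes the lipid-binding protein annexin A1, stood at 2127 against 670 CPM. Cebpe, the transcription factor needed for secondary granule genes, stood at 108 against 15.4 CPM, but at 42.8 (18.5 to 84.3) against 16.8 CPM (11.1 to 24.2) within library 2, where the intervals overlap. Il1b (interleukin-1 beta), one of 3 inflammatory transcripts given here as single genes, stood at 360 against 4706 CPM, Cxcl2 at 1079 against 5262 CPM and the NF-kB inhibitor Nfkbia at 481 against 2242 CPM. Within library 2 these 3 pairs were 428 against 3159, 1172 against 5405 and 556 against 2188 CPM. Mki67 had 0 UMIs in the 24 cells. The part of depth in these differences was not tested.

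**Figure D2:**
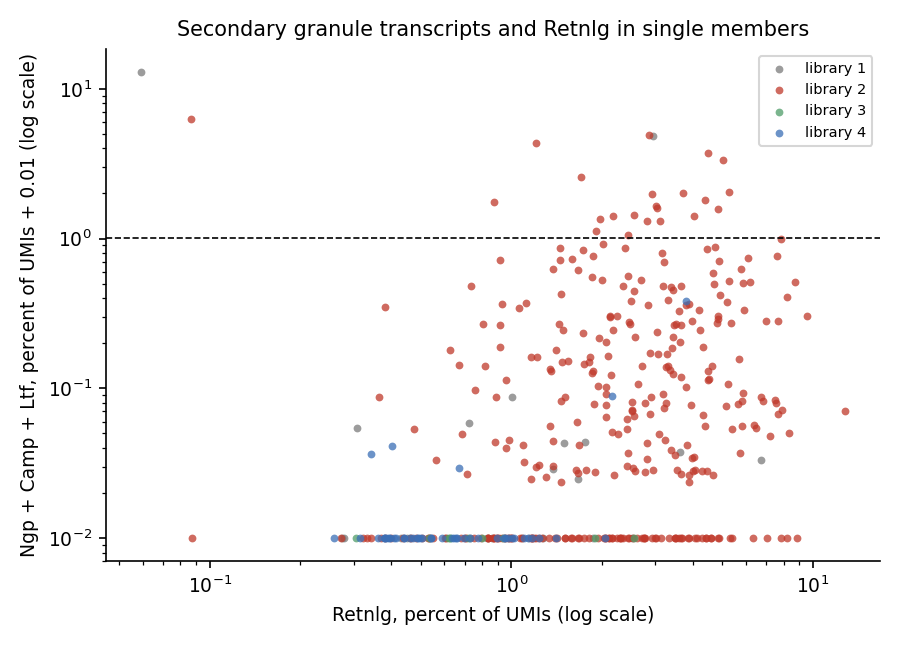
Summed share of Ngp, Camp and Ltf in a member's UMIs, with 0.01 percent added (vertical axis, log scale), against the share of Retnlg (horizontal axis, log scale), with 1 point per member coloured by library and a dashed line at 1 percent. Of the 24 points above the line, the 2 highest lie at the low end of Retnlg and the others lie between 0.877% and 5.27%. The row at the bottom holds the 174 members without the 3 transcripts.

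The 3 granule genes lie within 1.2 Mb of one another on chromosome 9. The bases from 250 to 71 before the RefSeq start of Ngp and Ltf are shown beside those of Retnlg, because Ngp and Ltf were high in the same few cells while Retnlg was not. The windows are chr9:110419558-110419737 for Ngp, chr9:111019042-111019221 for Ltf and chr16:48872358-48872537 for Retnlg, all on the plus strand of GRCm38.p6, from RefSeq. Capitals mark matches on either strand to TTNNGNAA, a core read by C/EBP factors, and to GAGGAA, a core read by PU.1.
Ngp: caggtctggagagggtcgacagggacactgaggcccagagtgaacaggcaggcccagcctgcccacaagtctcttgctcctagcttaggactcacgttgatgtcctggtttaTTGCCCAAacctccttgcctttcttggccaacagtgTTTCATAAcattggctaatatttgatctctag
Ltf: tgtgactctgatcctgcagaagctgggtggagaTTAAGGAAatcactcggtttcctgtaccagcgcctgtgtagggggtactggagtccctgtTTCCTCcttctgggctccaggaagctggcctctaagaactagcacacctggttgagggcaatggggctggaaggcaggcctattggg
Retnlg: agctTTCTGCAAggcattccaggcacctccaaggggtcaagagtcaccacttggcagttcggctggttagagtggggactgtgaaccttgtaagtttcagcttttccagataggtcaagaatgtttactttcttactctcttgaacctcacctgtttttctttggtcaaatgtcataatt
The C/EBP core matched 2 times for Ngp, 1 time for Ltf and 1 time for Retnlg, and 30.1% of 32851 windows of this length hold it. The PU.1 core matched 1 time, for Ltf, and 17.2% of the windows hold it. The matches describe these letters and show no binding.

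Most receptors and the adhesion molecule Selplg were more even across libraries than Ngp, Camp and Cd177. Cxcr2 stood at 858, 792, 782 and 1296 CPM in libraries 1 to 4. The complement receptor C5ar1 stood at 647, 907, 847 and 934 CPM. The chemokine receptor Ccr1 reached 1467 CPM in library 4, against 619 to 776 CPM in the others. Il1r2 stood at 1084, 2156, 1466 and 1605 CPM. The formyl peptide receptor Fpr1 stood at 196, 646, 326 and 368 CPM. Cxcr4, the receptor for the marrow-retention chemokine Cxcl12, was at 1140 CPM in the 10 members of library 3 and at 185 to 368 CPM elsewhere. Selplg, a ligand on leukocytes used in rolling on the vessel wall, stood at 805, 833, 815 and 868 CPM. Selplg was the most even of these genes.

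Genes for killing and sensing were detected. Of the NADPH oxidase, which makes the respiratory burst, Cyba (p22phox) stood at 1557 CPM, Rac2 at 1018 CPM and Ncf1 at 707 CPM. Cybb, the catalytic subunit that pairs with Cyba, was lower at 155 CPM, with 339, 131, 0 and 309 CPM in libraries 1 to 4. Most Cybb UMIs of library 1 came from the 2 cells rich in Ngp, Camp and Ltf. The 24 such members held 93 Cybb UMIs, 55 of them in library 2. The endotoxin co-receptor Cd14 stood at 4353 CPM and the Fc receptor chain Fcer1g at 2422 CPM. The activating receptor Trem1 (1087 CPM) and the C-type lectins Clec4d (1125 CPM) and Clec4e (942 CPM) were close to one another. The near-identical stefin genes, inhibitors of cysteine proteases, were led by Gm5483 (1422 CPM) and Stfa2l1 (972 CPM), and how reads were shared among them is uncertain.

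Interferon-response transcripts set the members of library 4 apart. Gbp2, a guanylate-binding GTPase, stood at 82.8, 23.7, 32.6 and 5854 CPM in libraries 1 to 4. Cxcl10, a chemokine for activated T cells, stood at 15.1, 26.4, 32.6 and 8504 CPM. Rsad2 (viperin) stood at 22.6, 33.4, 65.2 and 1776 CPM. Gbp5 had 0 UMIs in libraries 1 to 3 and 947 CPM in library 4. Cd274, which encodes the checkpoint ligand PD-L1, stood at 52.7, 84.5, 65.2 and 1118 CPM. In each of these 5 genes the value of library 4 lay far above the other libraries, whose intervals did not reach it. Other transcripts followed: Il1b stood at 6172, 2884, 4529 and 19363 CPM, and Ifitm3 at 1980, 1530, 2118 and 8248 CPM. Ifitm1 and Ifitm2 did not, at 3571 and 3012 CPM in library 4 against 4873 and 2995 CPM in library 2. The members of library 4 also held the highest sums of the monocyte and macrophage markers given above, and the part of other cells' RNA in these levels was not tested.

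**Figure D3:**
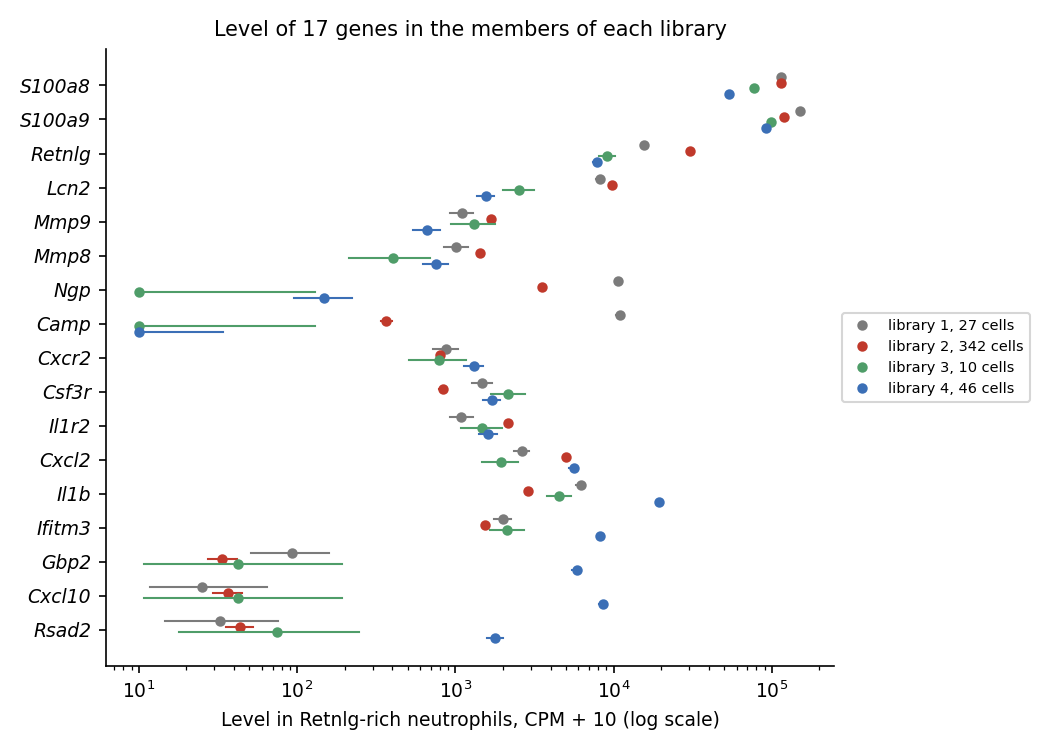
Levels of 17 genes (rows) in the members of each library, as CPM plus 10 on a log scale (horizontal axis), with points for the level over a library's members and lines for exact Poisson 95% intervals. The 4 libraries lie close together for Cxcr2 and Il1r2, Ngp and Camp spread over the scale, and Gbp2, Cxcl10 and Rsad2 are high in library 4 alone.

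Gbp2 and Cxcl10 were also high in the other neutrophils of library 4. Gbp2 stood at 6825 CPM in its neutrophils with 0 to 9 Retnlg UMIs and at 4709 CPM in those with Ccl3, against 5854 CPM in its members. Cxcl10 stood at 8213 and 6433 CPM, against 8504 CPM. In library 2 the same 3 groups had Gbp2 at 48.4, 15.3 and 23.7 CPM. The endothelial cells of library 4 also held Gbp2, at 1236 CPM, against 46.1 CPM in those of library 2. The gap in Gbp2 between these libraries was present in the 3 neutrophil groups and in endothelial cells.

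**Figure D4:**
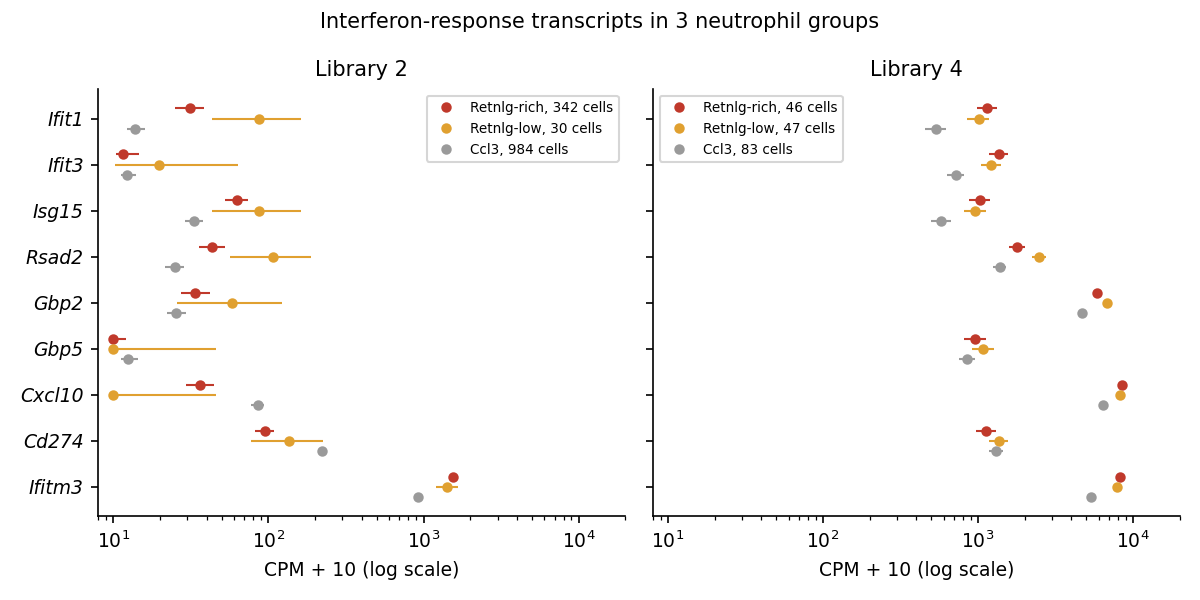
Levels of 9 interferon-response genes (rows) in 3 neutrophil groups of library 2 (left) and library 4 (right), as CPM plus 10 on a log scale, with exact Poisson 95% intervals. In library 4 the 3 groups lie together at high levels, Gbp2 at 4709 to 6825 CPM, while in library 2 Gbp2 is under 50 CPM in all 3.

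Neutrophils that met the rule but held 0 to 9 Retnlg UMIs, 121 cells called Retnlg-low, were the first comparison. The limit counts UMIs, and the Retnlg-low cells had a median of 2982 UMIs against 4537. They also came from other libraries, with 16, 30, 28 and 47 cells in libraries 1 to 4. Ratios are of members to Retnlg-low cells with 10 CPM added to both levels, and a gene was called at 2-fold or more. Of 4672 genes at 20 CPM or more in either group, 99 were called higher (2.12%) and 486 lower (10.4%). The median gene had a log2 ratio of -0.31 (ratio 0.806), and a gene at that ratio moved no more than the whole. When CPM was taken without the 6 genes of the rule, the median log2 ratio was -0.11, with 196 genes higher and 394 lower. Without library 4 there were 736 lower genes. The library mix and the Retnlg limit cannot be told apart in the pooled ratios, so ratios within libraries 2 and 4 are given beside them.

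Several granule and maturity transcripts were higher in the members. Of 8 secondary granule genes, 6 were called higher and none lower (median ratio 9.64), where 2.12% of all genes were called higher. When the neutrophils were split at the median Retnlg share instead, the ratios of Camp and Ltf were reversed, at 0.181 and 0.568. Within libraries 3 and 4, Ltf had 0 UMIs in the members and 2 UMIs in the Retnlg-low cells of each, too few to give a direction. Cd177 stood at 933 against 46.8 CPM, a ratio of 16.6, but at 19.7 against 13.6 CPM within library 4. Mmp8 stood at 1334 against 317 CPM, a ratio of 4.11, and was higher in library 2 (2.00) and in library 4 (3.21). The interferon-induced transmembrane relative Ifitm6 stood at 2320 against 366 CPM, with ratios of 4.26 in library 2 and 1.74 in library 4. Anxa1 had a ratio of 2.46, with 1.79 and 2.11 in these libraries, and the chemokine Ccl6 had 2.92, with 1.72 and 2.17. Lcn2 was called higher at 2.07, yet library 2 gave 0.749. Of 9 transcripts of mature neutrophils, 4 were called higher and none lower (median ratio 1.82), beside the same 2.12% of all genes. Camp and Ngp were each at 50 CPM or under in every library of Retnlg-low cells, and Retnla had 0 UMIs there.

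Of 6 genes listed for neutrophils of tissue, Siglecf, Cd274, Icam1 and Clec4n were called lower and none higher (median ratio 0.296), where 10.4% of all genes were called lower. Cd274 is also on the interferon-response list, for which the library mix is given below. Siglecf was scarce in the members, as given above. No ratio within a library is given for either gene. Clec4n, which encodes the fungal receptor dectin-2, stood at 65.8 against 501 CPM, with ratios of 0.148 pooled, 0.169 in library 2 and 0.369 in library 4. Icam1, an adhesion molecule of activated cells, had ratios of 0.308, 0.434 and 0.496 in the same order. The chemerin-binding Ccrl2 had 0.248, 0.442 and 0.688. Of 15 cytokines, chemokines and NF-kB targets, 5 were called lower and 1 higher (median ratio 0.612). In 13 of 18 interferon-response genes the pooled ratio called the members lower, but library 4 holds 38.8% of Retnlg-low cells and 10.8% of members. Within library 4, Gbp2 had a ratio of 0.858 against 0.168 pooled, and Cxcl10 had 1.04 against 0.199. Among transcripts of fibroblasts, Mgp, a matrix calcification inhibitor, had a pooled ratio of 0.0824, with 0.0341, 0.742, 0.542 and 0.970 in libraries 1 to 4. Dcn, the proteoglycan decorin, had 0.0899 pooled, with 0.0355, 1.36, 0.628 and 0.602. The 4 fibroblast markers summed to 5445 CPM in the 16 Retnlg-low cells of library 1. The part of other cells' RNA in that value was not tested. In the pooled ratios, macrophage and monocyte markers were also called lower in the members. These were 5 of 7 macrophage genes tested (C1qa, C1qb, C1qc, Adgre1 and Apoe), at a median ratio of 0.365. They were also 4 of 5 monocyte genes (Plac8, Fcgr1, F13a1 and Ms4a4c), at a median ratio of 0.367. In the Retnlg-low cells of libraries 1 to 4 the 8 macrophage markers summed to 2732, 484, 1465 and 1157 CPM, led by Apoe in the pool. The 6 monocyte markers summed there to 162, 1851, 253 and 4164 CPM, led by Plac8 in the pool. Against the members' sums given above, monocyte sums were higher in the members in libraries 1 and 3, nearly equal in library 4 and lower in library 2. Macrophage sums were lower in the members in each library, but by little in library 4, where Apoe had a ratio of 1.10. The part of macrophage and monocyte RNA in the lower transcripts was not tested. None of 11 receptors was called higher and Cxcr4 was called lower (median ratio 0.964), and none of 6 NADPH oxidase genes was called (median ratio 1.08).

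Neutrophils with at least 1 Ccl3 UMI and any Retnlg, 1128 cells, were the next comparison. As a pool, 87.2% of them came from library 2, their median depth was 4428 UMIs and Retnlg stood at 22861 CPM. In libraries 3 and 4 the groups were less alike in Retnlg. The Ccl3 neutrophils of libraries 3 and 4 had Retnlg at 657 and 1023 CPM, against 9058 and 7866 CPM in the members. Library 1 gave 7 Ccl3 neutrophils against 27 members, with Retnlg at 14757 against 15559 CPM. The rule separates these groups by Ccl3, so genes that vary with Ccl3 were in part chosen by it. Of 4050 genes, 32 were called higher in the members (0.790%) and 71 lower (1.75%), with a median log2 ratio of -0.04. Against the 854 Ccl3 neutrophils that also held 10 or more Retnlg UMIs, 94 genes were called higher (2.35%) and 73 lower (1.83%), and with CPM taken without the rule's genes, against all 1128, 64 were higher and 60 lower. Without library 2, 185 were higher and 735 lower, with 83 members left.

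Most of the listed cytokines, chemokines and NF-kB targets were lower in the members. Of these 15 genes, 11 were called lower and none higher (median ratio 0.354), where 1.75% of all genes were called lower. The 11 were Il1a, Il1rn, Tnf, Cxcl2, Cxcl3, Ccl4, Ptgs2, Nfkbia, Tnfaip3, Icam1 and Ccrl2. Ccl4, the neighbour and close relative of Ccl3, stood at 113, 477, 0 and 355 CPM in the members of libraries 1 to 4 and at 1625, 4075, 577 and 5693 CPM in the Ccl3 neutrophils. Each library's members were below its Ccl3 neutrophils, and the pooled ratio was 0.111. Tnf (tumour necrosis factor) stood at 37.6, 446, 261 and 78.9 CPM against 1545, 1687, 2694 and 1072 CPM, a ratio of 0.237. Cxcl2, a ligand of Cxcr2, stood at 2612, 4979, 1922 and 5584 CPM against 10069, 15652, 14347 and 22035 CPM, a ratio of 0.304. Il1a had a ratio of 0.135, Cxcl3 of 0.248, Il1rn (the interleukin-1 receptor antagonist) of 0.354 and Nfkbia of 0.438. Il1b fell short of the call at 0.595 pooled, with 0.464 in library 2 and 0.917 in library 4. Against the Ccl3 neutrophils with 10 or more Retnlg UMIs, library 2 gave nearly the same ratios, at 0.122 for Ccl4, 0.136 for Il1a, 0.259 for Cxcl3 and 0.273 for Tnf. The other libraries held only 4, 1 and 12 such cells. Library 4 then gave 0.120 for Ccl4, 0.681 for Tnf, 0.762 for Il1a and 6.26 for Cxcl3, and library 1 gave 12.3 for Ccl4. Outside library 2 such cells and their UMIs were too few to give a direction for these 4 genes. The members were not without inflammatory transcripts: Cxcl2 stayed among their 15 most abundant genes.

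**Figure D5:**
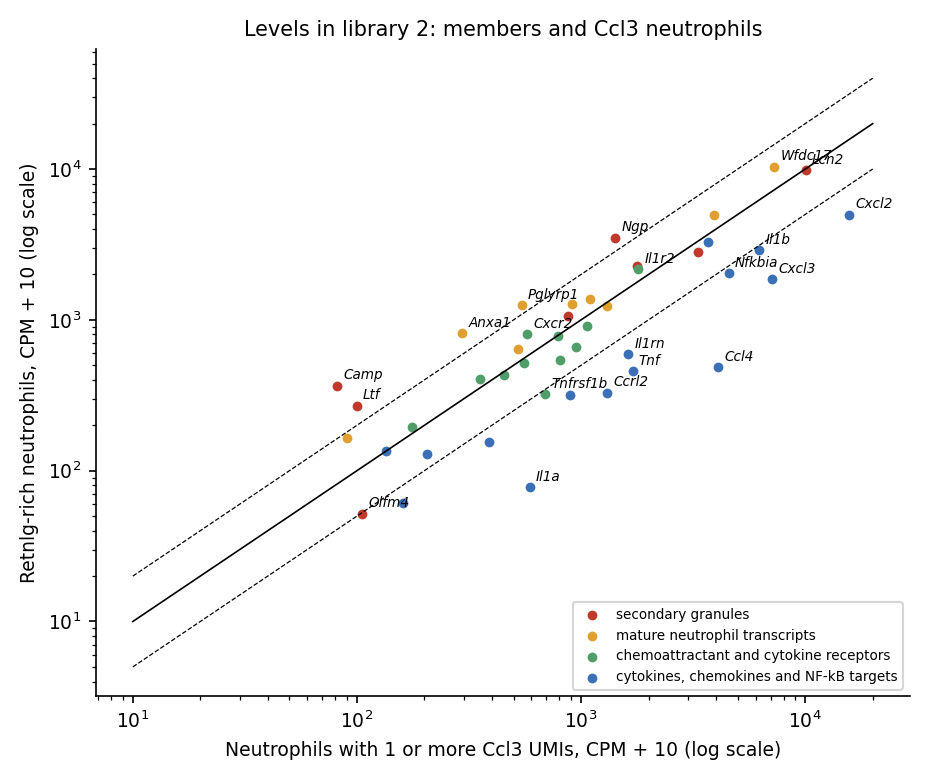
Levels within library 2 in 342 members (vertical axis) and 984 Ccl3 neutrophils (horizontal axis), as CPM plus 10 on log scales, with 1 point per gene of 4 lists, a solid line of equality and dashed lines at 2-fold. Cytokine and chemokine genes such as Ccl4, Il1a, Tnf and Cxcl2 lie below the lower dashed line, receptors other than Tnfrsf1b lie between the dashed lines, and Camp, Ltf and Ngp lie above the upper one.

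Some genes were higher in the members than in Ccl3 neutrophils. Of 8 secondary granule genes, Camp, Ltf and Ngp were called higher and Olfm4 lower (median ratio 1.27). Of all genes, 0.790% were called higher and 1.75% lower. Ngp had a ratio of 2.85, Ltf of 4.90 and Camp of 11.4, and library 2 alone gave 2.48, 2.71 and 4.51. The members of libraries 3 and 4 had no Ltf or Camp UMI, and their Ccl3 neutrophils held 2 and 10 Ltf and 4 and 5 Camp UMIs. The pooled Camp level rests for the larger part on 1 cell of library 1, as given above. Anxa1 stood at 1558, 804, 489 and 428 CPM against 906, 285, 369 and 166 CPM in libraries 1 to 4, with a ratio of 2.81. The direction in library 1 rests on the 2 cells rich in Ngp, Camp and Ltf, which held most of its Anxa1. The 24 such members held 473 Anxa1 UMIs, 352 of them in library 2. In library 3 there were only 10 members. Pglyrp1 stood at 2281, 1246, 1173 and 1572 CPM against 1092, 533, 315 and 386 CPM, higher in each, with a ratio of 2.53. Aldh2, a mitochondrial aldehyde dehydrogenase, had 2.85 and Ifitm6 had 2.42, although Ifitm6 was lower in the members of library 1. Of 11 receptors none was called higher and Tnfrsf1b, a receptor of tumour necrosis factor, was called lower (median ratio 0.947). None of 12 genes of glycolysis and glucose uptake was called, at a median ratio of 0.716. Of 18 interferon-response genes 4 were called higher (median ratio 1.65), where 0.790% of all genes were called higher. Within library 2, however, Ifit3 had a ratio of 0.946 against 2.04 pooled. Ifit1 had 2.47 pooled, 0.684 in library 1, 2.26 in library 2 and 2.13 in library 4, and it rests on 39 UMIs in 10 cells in the members of library 2. Against the Ccl3 neutrophils with 10 or more Retnlg UMIs, the Ifit1 ratio in library 4 was 1.09.

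Monocytes of the grafts, 5709 cells with Ly6c2, Plac8 and Csf1r and with S100a8 and S100a9 under 5%, were the comparison outside the neutrophils. Of these, 96.7% came from library 4, and their median depth was 15950 UMIs. Of 5827 genes, 585 were called higher in the members (10.0%) and 2390 lower (41.0%), at a median log2 ratio of -0.74. With CPM taken without the rule's genes, 933 were higher and 1816 lower. All 8 secondary granule genes and all 9 mature neutrophil transcripts were called higher. Mmp9 stood at 1558 against 3.55 CPM, a ratio of 116, with 61.1 in library 2 and 50.4 in library 4. Cxcr2 had ratios of 58.9, 31.6 and 94.1, and G0s2, an inhibitor of fat breakdown, had 91.3, 89.3 and 210, in the same order. Lcn2 had 104 pooled and 34.3 in library 4, but 6.68 in library 2, whose monocytes held 1463 CPM of Lcn2. Genes of class II antigen presentation were not counted as a list, and 2 of them are given as single genes. H2-Ab1 stood at 52.9 against 5799 CPM and Cd74, the invariant chain, at 152 against 14133 CPM. Their ratios in library 4 were 0.103 and 0.0971, and in library 2 0.535 and 0.357. H2-Ab1 thus fell short of the 2-fold call in library 2. Cybb was also lower at 155 against 1051 CPM, while Ncf1 and Rac2 were called higher. Gbp2 was lower at a pooled ratio of 0.270 but higher within library 2 (2.36) and within library 4 (3.42).

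Members that differed in Retnlg were compared within library 2, whose 342 members were split into 3 groups of 114 by the Retnlg share of UMIs. Retnlg stood at 10270, 25071 and 51172 CPM from the low to the high group, and median depth rose with it, at 4224, 5370 and 5902 UMIs. Mmp8 stood at 817, 1605 and 1737 CPM, Ifitm6 at 1654, 2888 and 3076 CPM, Cd177 at 848, 1055 and 1224 CPM and Ly6g at 110, 142 and 202 CPM. These 4 genes were lowest where Retnlg was lowest. Il1rn went the opposite way at 788, 561 and 435 CPM, as did Nfkbia at 2499, 1854 and 1799 CPM. Cxcr2 (790, 796 and 790 CPM) and Wfdc17 (10241, 10267 and 10511 CPM) differed little. Camp stood at 707, 218 and 205 CPM, and few cells hold nearly all of it. CPM values sum to 1 total, so a group with more Retnlg has less room for other genes, and the part of depth was not tested.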

How the data were processed

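Cells came from 4 mouse heart grafts, and the authors deposited 1 matrix of UMI counts made with Cell Ranger 3.0.0 on mm10 with Ensembl annotation (10x Genomics 3′ kit), with gene names and barcodes. The study's notes also name CASAVA 1.8 and Seurat. The stated number of cells in the study is smaller than the number its stated filter leaves here. Counts were used as deposited, and 308 barcode sequences occurred in 2 libraries. CPM was taken over non-mitochondrial UMIs, summed over the cells of a group. Mitochondrial genes and the 6 genes of the rule were left out of gene comparisons. Levels have exact Poisson 95% intervals and shares exact Clopper-Pearson ones. A ratio has 10 CPM added to both levels, and a gene entered at 20 CPM in either group. PCR duplicates are removed by the UMIs. Doublets were marked as the 5% of each library with most simulated doublets among 50 neighbours, and were kept. Members held 2232074 UMIs, from 33543 in library 3 to 1899200 in library 2, so the intervals are widest in library 3.

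The members and gene lists were chosen with earlier results of these data known. Genes named were the list genes, the 15 most abundant, and in each comparison the 10 largest and 10 smallest ratios, on the same side in each library with at least 50 cells of both groups (none for Retnlg-low, library 2 for the others). Of 211 listed names, 210 were in the matrix. Gene positions are from GENCODE M21 and promoter sequences from RefSeq (GRCm38.p6). Intervals came from scipy 1.17.1 and doublet neighbours from scikit-learn 1.9.0 (Python 3.11.15), and the ratio step was checked on simulated counts. Alternatives were the limits of the rule, leaving out each library or doublets, 1 CPM added, no minimum, thinning to 1000 UMIs and mean shares over cells. Some genes of the lists are counted but not reported by name here.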

Additional observations from a re-analysis of the deposited data

How the results depend on the processing

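No paired analysis was possible because the matrix is pooled and no library carries a replicate number of the labels. Of 859 alternative ratios of named genes past 2-fold, 841 kept their direction and 18 reversed, none by removing doublets, by adding 1 CPM, without the minimum or without the cell richest in Camp. Members were 0.804% of kept cells with at least 20 Retnlg UMIs, 0.822% at 10% S100a8 and S100a9, 1.18% under 10% mitochondrial UMIs and 1.30% with any Cdh5. Without library 1, 2, 3 or 4 in turn they were 1.16%, 0.264% (83 cells), 1.19% and 1.14%. The cause of the changes below was not tested.

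Against Retnlg-low cells, genes higher and lower numbered 157 and 838 with 1 CPM added, 274 and 840 thinned, and 270 and 743 in library 2 alone. Without library 4, 736 were lower. Higher genes numbered 28 when split at the median Retnlg share, 196 without the rule's genes and 382 in library 4 alone. Reversed ratios were Ifit3 1.04 without library 2, Cxcl10 1.58 without library 4 and Il1a 1.05 thinned. At the median split Camp had 0.18 and Ltf 0.57. Library 2 alone gave Lcn2 0.749, Cxcl10 3.64 and Dcn 1.36, and library 4 alone gave Wfdc21 0.924, Ifit3 1.12, Cxcl10 1.04 and Apoe 1.10. Library 4 alone also gave Ltf 0.424, on too few UMIs to give a direction.

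Against Ccl3 neutrophils, genes higher and lower numbered 78 and 131 with 1 CPM added, 185 and 735 without library 2, 105 and 115 thinned, 77 and 119 against cells with 3 or more Ccl3 UMIs, and 296 and 590 in library 4 alone. Higher genes numbered 94 against Ccl3 cells rich in Retnlg and 64 without the rule's genes. Ifit3 reversed to 0.946 in library 2 alone, and Camp to 0.381 and Ltf to 0.235 in library 4 alone. Against monocytes, 933 genes were higher without the rule's genes, and Gbp2 reversed to 2.36 in library 2 alone and 3.42 in library 4 alone. Depth limits libraries 1, 3 and 4 most, with 27, 10 and 46 members, where genes near 20 CPM rest on few UMIs.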

Other observations

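Further values of the members concern transcription factors, survival genes and glycolysis genes. Cebpb, a C/EBP factor of mature and activated myeloid cells, stood at 5412, 4353, 5832 and 6689 CPM in libraries 1 to 4. Mxd1, a repressor that opposes Myc, stood at 1844, 1810, 2737 and 2506 CPM, and Spi1, which encodes PU.1, at 1242, 664, 1043 and 980 CPM. Each of these 3 genes stayed within a 2-fold range across libraries. Cebpa, the factor of early granulocyte precursors, stood at 6.90 CPM and Gfi1, a repressor of the same stage, at 0.920 CPM over all members. Mcl1, on which neutrophil survival depends, stood at 2439, 2436, 1662 and 2841 CPM. Bhlhe40, a stress-responsive repressor, stood at 30.1, 408, 163 and 19.7 CPM, and Hilpda, a lipid-droplet protein induced by low oxygen, at 158, 591, 97.7 and 19.7 CPM. Both were highest in library 2. Against Ccl3 neutrophils, 3 genes of 7 in the survival list were called lower, where 1.75% of all genes were called lower. They were Bcl2a1a, Bcl2a1b and Bcl2a1d, near-identical survival genes whose reads may be shared, with Bcl2a1b at 324 against 1005 CPM. Of glycolysis, Gapdh stood at 2366 CPM, Pkm at 1207 CPM and Ldha at 766 CPM, and the hexokinase Hk2 at 43.3 CPM.

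A further 3 cells met the rule but failed the limit on genes or mitochondrial UMIs, at a median of 32.3% mitochondrial UMIs, and 62 cells in library 2 met all terms except Csf3r. They were not analysed further.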
